A study of Rattus norvegicus with 30 samples.

Results

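The aryl hydrocarbon receptor (AhR) pathway was followed through 5 genes in rat hepatocytes in primary culture that had been treated with dioctyl phthalate, a diester plasticizer. The genes were Ahr, which encodes the receptor, Arnt, its partner, and the target genes Cyp1a1, Cyp1a2 and Tiparp. They were found as all probe sets that the platform gene table assigns to these symbols, which gave 7 probe sets. Of the 5 genes, 4 entered the gene tests among 10528 genes in all, and Arnt did not because its probe set lay under the low-signal limit.

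The 6 groups of wells were measured, written here as 250 µM at 48 h, 1000 µM at 48 h, vehicle at 48 h, 250 µM at 24 h, 1000 µM at 24 h and vehicle at 24 h. Each group held 5 wells with 1 array per well, 30 arrays in all, and vehicle wells received the 1% DMSO that treated wells also received. The cells were commercial frozen hepatocytes from Sprague Dawley males. After thawing they attached to collagen and were overlaid with Matrigel, and exposure began on day 3 of culture. How many animals and vials lie behind the wells the sources used here do not say, so p-values measure the spread between wells, which may be technical. The number of arrays limits the precision.

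AhR is a transcription factor that waits in the cytoplasm with chaperones until a ligand such as a dioxin binds it, then enters the nucleus and pairs with ARNT. The pair binds xenobiotic response elements, whose core is GCGTG, near genes such as Cyp1a1 and Cyp1a2, P450 enzymes that oxidise aromatic compounds. In liver, Cyp1a2 is made without an inducer and Cyp1a1 is the classic induced gene, while TIPARP, an ADP-ribosyltransferase, is an AhR target that in the mouse also restrains the receptor.

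Promoter sequence was read for the Cyp1a2 and Tiparp genes, since their signals moved in opposite directions. Both windows run from 250 bases before to 50 after the gene's start on its own strand in RefSeq's GRCr8 assembly, Cyp1a2 at chr8:66978100-66978399 (minus strand) and Tiparp at chr2:152063519-152063818 (plus strand). Capitals mark the core GCGTG or its reverse complement CACGC.
Cyp1a2: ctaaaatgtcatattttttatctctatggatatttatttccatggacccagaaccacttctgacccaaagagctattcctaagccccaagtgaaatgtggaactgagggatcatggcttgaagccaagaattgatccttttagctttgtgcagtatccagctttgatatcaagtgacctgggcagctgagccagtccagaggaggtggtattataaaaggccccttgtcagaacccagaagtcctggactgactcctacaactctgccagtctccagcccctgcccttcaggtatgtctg
Tiparp: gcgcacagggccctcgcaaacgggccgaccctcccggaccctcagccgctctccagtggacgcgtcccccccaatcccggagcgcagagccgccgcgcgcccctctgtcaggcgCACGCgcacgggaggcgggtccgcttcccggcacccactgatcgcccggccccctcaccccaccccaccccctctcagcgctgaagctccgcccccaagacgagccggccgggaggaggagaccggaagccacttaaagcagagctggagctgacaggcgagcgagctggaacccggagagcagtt
The Tiparp window held 1 core, starting at position -136 from the gene's start, and was 72.7% G or C with 32 CpG pairs. The Cyp1a2 window held 0 cores and 0 CpG pairs and was 46.3% G or C. Among the other members, the Arnt window held 1 core and the Ahr window 0, and no window was found for Cyp1a1. A link between the core and the direction of change was not tested. Of the 33469 rat promoter windows of the same length, 29.7% held the core on either strand. The longer form TNGCGTG, searched on both strands and overlapping the core, stood in 0 of the 4 windows found for these genes and in 4.89% of all windows. A match describes letters only, and the absence of one concerns only this window.

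Of 13 hepatocyte markers, 13 lay above the low-signal limit on each of the 30 arrays. At 48 h, 0 were called higher and 6 lower at each dose, against 41.2% and 29.7% of all genes called. Their median change was -0.17 at 250 µM and -0.23 at 1000 µM, beside -0.07 and -0.04 over all genes. At 24 h the counts were the same at each dose, against 19.3% and 19.5% of all genes. The medians there were -0.19 and -0.20, beside -0.03 at both doses. The summed hepatocyte marker signal was 464000 to 529000 at 250 µM, 443000 to 506000 at 1000 µM and 553000 to 634000 in vehicle at 48 h, and 504000 to 579000, 447000 to 593000 and 555000 to 774000 in the same groups at 24 h. The summed signal of the 10 stellate cell and myofibroblast markers was 7070 to 9100 in treated wells and 10500 to 16700 in vehicle wells over both times. A sum follows its brightest genes. The median change of the 6 tested markers at 48 h was -0.01 at 250 µM and 0.005 at 1000 µM. There 1 was called higher and 1 lower at 250 µM, and 0 higher and 1 lower at 1000 µM, against 41.2% and 29.7% of all genes called. Vim, the intermediate filament gene that cultured hepatocytes can also express, carried a log2 change of -1.70 ± 0.09 (SE) at 250 µM and 48 h in that list, and Col1a1 one of 0.78 ± 0.21. Kupffer cell and leukocyte markers summed to 8080 to 9230 at 250 µM, 8080 to 9090 at 1000 µM and 9070 to 10500 in vehicle at 48 h. At 24 h the sums were 10200 to 11300, 9100 to 12300 and 9400 to 12600 in the same groups. Of the endothelial and cholangiocyte markers, at most 3 of 6 and 2 of 5 had a group mean above the limit. On single arrays up to 4 of 6 and 3 of 5 lay above it. The part of these shifts in the results below was not tested, and in bulk wells fewer cells of a type and less RNA per cell cannot be told apart. RNA quality was read from the log2 ratio of the 3' over the 5' beta-actin control, which was 1.15 ± 0.157 at 250 µM, 1.30 ± 0.138 at 1000 µM and 1.72 ± 0.494 in vehicle at 48 h (SD, n = 5 each, exact two-sided permutation p = 0.0397 and 0.111, adjusted p = 0.0794 and 0.181 over 10 tests). The same ratio for the GAPDH control was 0.131 ± 0.0443 at 250 µM, 0.142 ± 0.0369 at 1000 µM and 0.219 ± 0.0545 in vehicle at 48 h (SD, n = 5 each, exact two-sided permutation p = 0.0238 and 0.0397, adjusted p = 0.0794 for both). Vehicle replicates 1, 2, 3 and 5 at 48 h had raised beta-actin ratios. Below, calls of named genes and lists against vehicle at 48 h that are lost without them are given beside the result. The part of these ratios in the results was not tested.

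Cyp1a1 and Cyp1a2 were lower with dioctyl phthalate than in vehicle at both doses and both times, and Tiparp was higher. Cyp1a1 was lower by 0.28 to 0.42 and Cyp1a2 by 0.29 to 0.65 on the log2 scale. Tiparp was higher by 0.21 to 0.31, and passed the test at 1000 µM only. Over the 4 tested members the median change was -0.04 at 250 µM and 0.01 at 1000 µM at 48 h, and -0.03 and -0.01 at 24 h, beside -0.07, -0.04, -0.03 and -0.03 over all genes. A gene was called changed when limma's test gave an adjusted p under 0.05 after Benjamini-Hochberg adjustment over the 10528 tested genes. Unless stated otherwise, changes are log2 differences of the array signal with their standard error.

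Before these results, 1 well needs naming. In vehicle at 24 h, replicate 1 had a Cyp1a1 signal of 17261, while the other 4 wells lay at 32272 to 34811. Its Cyp1a2 signal was 10324, against 15169 to 16811 in the other 4, and its Tiparp signal was 3118, against 3925 to 4817. Over all tested genes, 3.95% stood apart in this array from the rest of its group, against 0.494% to 2.56% for the other 4 wells, and the highest share on any array was 4.53%, in vehicle at 48 h. Its beta-actin ratio of 1.04 was not raised. Its summed signal of hepatocyte markers was 555000, and of stellate markers 10500, each the lowest of the 5 wells. The 24 h results of the members against vehicle are therefore given with and without it. For the lists below whose 24 h counts are printed, the calls that change are given. The well was singled out by its member signals, so p-values of Cyp1a1 and Cyp1a2 without it are descriptive only.

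Cyp1a1 encodes the inducible P450 on which the pathway's activity is usually read. At 48 h its signals were 24324, 24910.3, 23617, 25671 and 24960.4 at 250 µM. They were 24999, 24058, 23829.9, 24463 and 25163 at 1000 µM. In vehicle they were 30535, 28526, 27253, 32103 and 31391. Every treated well at 48 h lay below every vehicle well. The change was -0.28 ± 0.11 at 250 µM (0.825-fold, 95% interval -0.50 to -0.06, adjusted p = 0.0396) and -0.29 ± 0.11 at 1000 µM (0.819-fold, interval -0.51 to -0.07, adjusted p = 0.0429). At 48 h, 2 of 4 tested members were called at 250 µM, Cyp1a1 and Cyp1a2, both lower, against 41.2% of all genes called in either direction. At 1000 µM, 3 of 4 were called, the same genes lower and Tiparp higher, against 29.7% of all genes. The arrays of treated and vehicle wells did not overlap for 25.3% of all genes at 250 µM and 18.3% at 1000 µM. Falls at least as large as that of Cyp1a1 were seen in 28.1% of genes at 250 µM and 19.1% at 1000 µM, so its size at 48 h was ordinary for these arrays. When the 4 vehicle arrays with a raised beta-actin ratio were left out, which keeps 1 vehicle array at 48 h and assumes that it varies like the others, the Cyp1a1 change was -0.38 ± 0.20 at 250 µM (adjusted p = 0.247) and -0.39 ± 0.20 at 1000 µM (adjusted p = 0.245). The vehicle well that remained, replicate 4, had the highest Cyp1a1 signal of its group. The calls lay near the threshold. At 250 µM, leaving out replicate 1, 2, 3 or 5 of that dose or vehicle replicate 1, 4 or 5 gave adjusted p = 0.057 to 0.0794, and at 1000 µM leaving out any well of that dose or vehicle replicate 1, 2, 4 or 5 gave 0.0514 to 0.0852.

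At 24 h the Cyp1a1 signals were 22308, 21064, 22973, 20817 and 22968 at 250 µM. They were 19382, 23350.2, 23682, 21816 and 22401 at 1000 µM. In vehicle they were 17261, 32272, 34248, 32938.5 and 34811. The treated wells lay below 4 of the 5 vehicle wells and above replicate 1. The change was -0.42 ± 0.11 at 250 µM (0.749-fold, interval -0.64 to -0.20, adjusted p = 0.00465) and -0.41 ± 0.11 at 1000 µM (0.751-fold, interval -0.63 to -0.19, adjusted p = 0.00531). At 24 h, 2 of 4 tested members were called at 250 µM, Cyp1a1 and Cyp1a2, both lower, against 19.3% of all genes in either direction, and 3 of 4 at 1000 µM, those genes lower and Tiparp higher, against 19.5%. Without vehicle replicate 1 the changes were -0.61 ± 0.05 (adjusted p = 7.98e-11) and -0.60 ± 0.05 (adjusted p = 1.09e-10). All groups share 1 estimate of the spread, so leaving out that well also lowered the standard error at 48 h to 0.05.

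**Figure D1:**
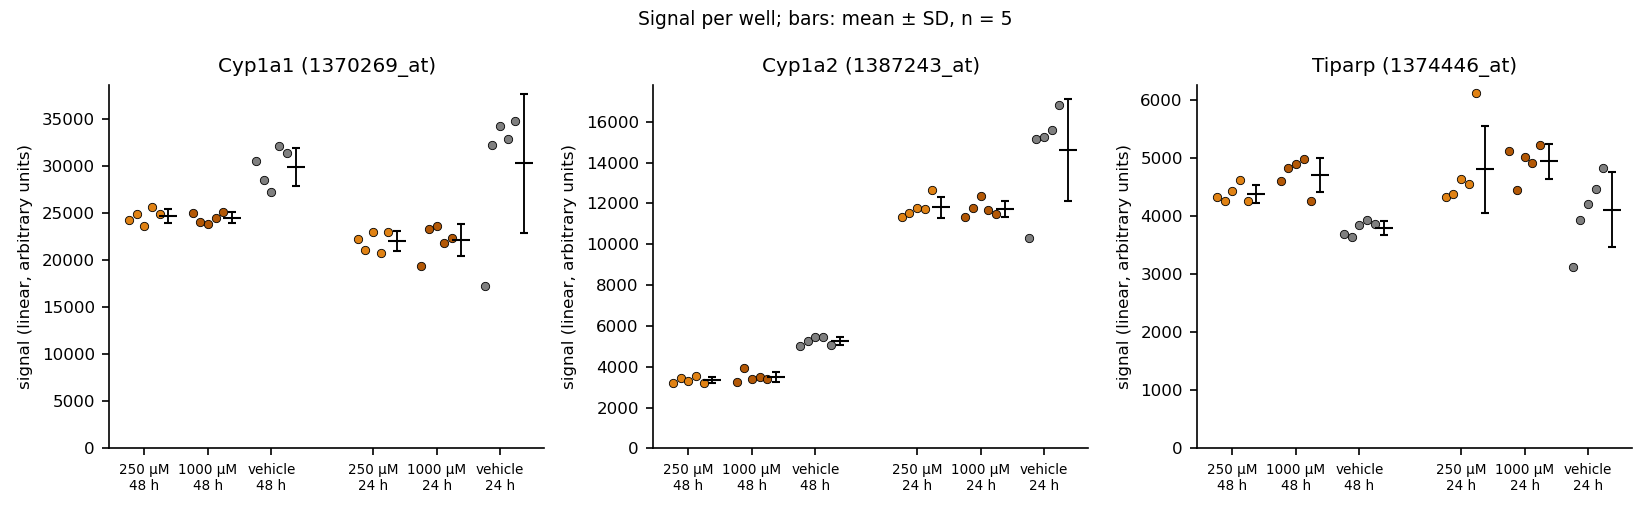
Array signal (linear scale, arbitrary units) of Cyp1a1, Cyp1a2 and Tiparp in each well, by group, with points for the 5 wells and bars for mean ± SD. Vehicle replicate 1 at 24 h lies at 17261 for Cyp1a1, apart from 32272 to 34811 in the other vehicle wells, and the Cyp1a2 axis shows the drop between 24 and 48 h in all 3 treatments.

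Cyp1a2 encodes the P450 that hepatocytes make without an inducer and that oxidises caffeine and aromatic amines. At 48 h its signals were 3222, 3465, 3289, 3559 and 3182 at 250 µM. They were 3258, 3929, 3389, 3489.8 and 3413 at 1000 µM. In vehicle they were 5019.9, 5265, 5444, 5476 and 5077. The highest treated well was below the lowest vehicle well at both doses. Such a lack of overlap, in either direction, held for 25.3% of all genes at 250 µM and 18.3% at 1000 µM. Cyp1a2 fell by 0.65 on the log2 scale at 250 µM (0.636-fold, SE 0.08, 95% interval -0.81 to -0.49, adjusted p = 4.29e-08). At 1000 µM it fell by 0.59 (0.664-fold, SE 0.08, interval -0.75 to -0.43, adjusted p = 4.33e-07). Falls at least as large were seen in 6.63% of genes at 250 µM and 4.85% at 1000 µM. With those 4 vehicle arrays left out the changes were -0.71 ± 0.14 (adjusted p = 0.000659) and -0.65 ± 0.14 (adjusted p = 0.00204).

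At 24 h the Cyp1a2 signals were 11314.5, 11557, 11765, 11717.5 and 12667 at 250 µM. They were 11319, 11767, 12366, 11693 and 11499 at 1000 µM. In vehicle they were 10324, 15169, 15268, 15607 and 16811. As for Cyp1a1, the treated wells lay between vehicle replicate 1 and the other 4 vehicle wells. The change was -0.29 ± 0.08 at 250 µM (0.817-fold, adjusted p = 0.00658) and -0.30 ± 0.08 at 1000 µM (0.812-fold, adjusted p = 0.00529). Without vehicle replicate 1 it was -0.41 ± 0.05 (adjusted p = 3.32e-07) and -0.42 ± 0.05 (adjusted p = 2.54e-07).

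Tiparp encodes the ADP-ribosyltransferase that is switched on by AhR. At 48 h the brighter of its probe sets had signals of 4320.05, 4249, 4437, 4621 and 4264 at 250 µM. The signals were 4605, 4821, 4899, 4985 and 4250.1 at 1000 µM. In vehicle they were 3695, 3643, 3849.8, 3929.8 and 3855. Every treated well lay above every vehicle well. Over all genes, treated and vehicle wells did not overlap in either direction for 25.3% at 250 µM and 18.3% at 1000 µM. The change was 0.31 ± 0.09 at 1000 µM (1.24-fold, interval 0.14 to 0.49, adjusted p = 0.00579). At 250 µM it was 0.21 ± 0.09 and missed the threshold (1.15-fold, interval 0.03 to 0.38, adjusted p = 0.0545). Rises at least as large were seen in 20.5% of genes at 250 µM and 12.1% at 1000 µM. With the 4 vehicle arrays left out the change at 1000 µM was 0.26 ± 0.16 (adjusted p = 0.363).

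At 24 h the Tiparp signals were 4335, 4377, 4636, 4542 and 6113 at 250 µM. They were 5115, 4450.1, 5007, 4911 and 5214 at 1000 µM. In vehicle they were 3118, 3925, 4205, 4465 and 4817. The ranges of treated and vehicle wells overlapped at both doses. The change was 0.28 ± 0.09 at 1000 µM (1.21-fold, adjusted p = 0.0187) and 0.23 ± 0.09 at 250 µM (1.17-fold, adjusted p = 0.0612). The call at 1000 µM rested on vehicle replicate 1. Without that well the change was 0.18 ± 0.08 at 1000 µM (adjusted p = 0.0993) and 0.13 ± 0.08 at 250 µM (adjusted p = 0.275), while at 250 µM and 48 h Tiparp then passed the test (0.21 ± 0.07, adjusted p = 0.0206). At 250 µM and 24 h, Tiparp passed when replicate 1 or 2 of that dose or vehicle replicate 4 or 5 was left out (0.26 to 0.29, adjusted p = 0.0154 to 0.0479).

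The second Tiparp probe set was dimmer, with signals of 389 to 1351, and was tested in a fit of every probe set. Its change was 0.55 ± 0.16 at 250 µM (adjusted p = 0.0152) and 0.44 ± 0.16 at 1000 µM (adjusted p = 0.06) at 24 h. At 48 h it was 0.26 ± 0.16 and 0.29 ± 0.16 (adjusted p = 0.221 and 0.206). Both probe sets pointed upwards in all 4 comparisons with vehicle, but they passed the test in different comparisons. The second probe set's changes at 24 h, without vehicle replicate 1, were 0.46 ± 0.17 at 250 µM (adjusted p = 0.0613) and 0.35 ± 0.17 at 1000 µM (adjusted p = 0.184). With time it was lower at 250 µM (-0.58 ± 0.16, adjusted p = 0.0163), and it changed by -0.45 ± 0.16 at 1000 µM (adjusted p = 0.06) and -0.29 ± 0.16 in vehicle (adjusted p = 0.192).

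**Figure D2:**
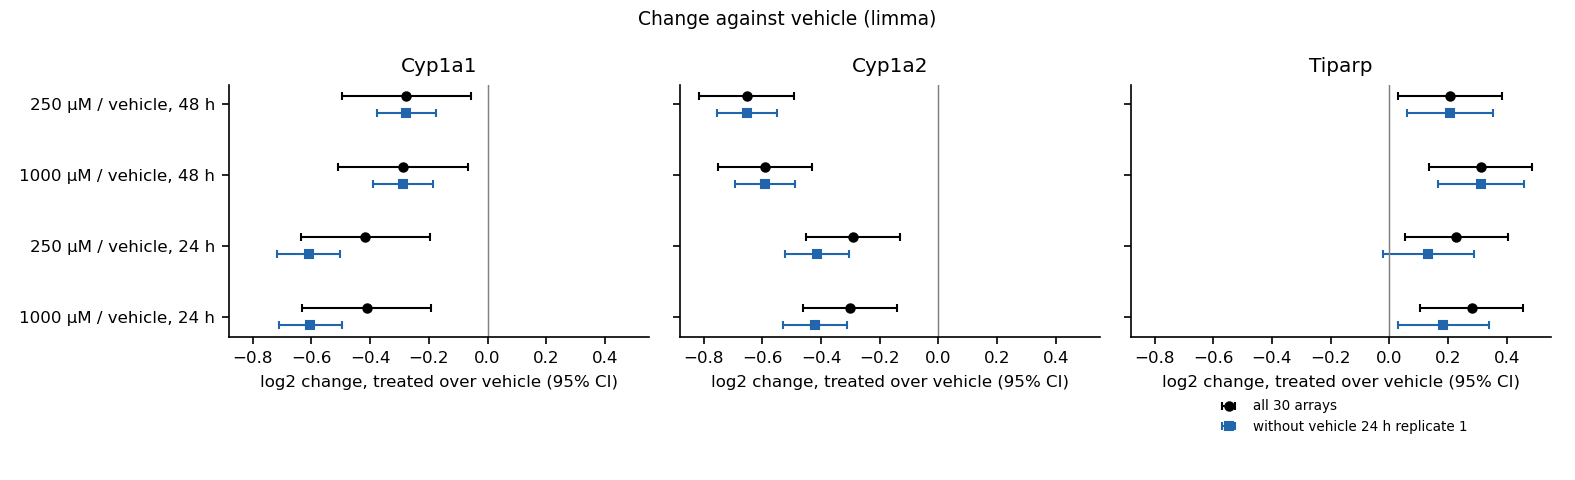
Log2 change against vehicle with its 95% confidence interval (limma) for Cyp1a1, Cyp1a2 and Tiparp in the 4 comparisons, with all 30 arrays (black circles) and without vehicle replicate 1 at 24 h (blue squares). Leaving out that well moves the Cyp1a1 change at 24 h and 250 µM to -0.61, against -0.42 with it, and takes the Tiparp interval at 24 h and 250 µM across 0.

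Ahr, the receptor, was read by a pair of probe sets near or under the low-signal limit of 234. The tested probe set had signals of 30.4 to 547 over the 30 wells. In 250 µM wells at 48 h its signals ran from a lowest of 169.7 through a median of 235 to a highest of 409, in 1000 µM wells from 264 through 345 to 377, and in vehicle wells from 47.8 through 275 to 492. At 24 h the lowest, median and highest were 234, 327 and 547 at 250 µM, 211, 242 and 383 at 1000 µM, and 30.4, 309.8 and 448 in vehicle. The groups overlapped in every comparison, and the widest spread was in vehicle, where replicate 2 at 24 h and 1 well at 48 h were far below the others. The change was 0.25 ± 0.52 at 250 µM (interval -0.81 to 1.31, adjusted p = 0.741) and 0.58 ± 0.52 at 1000 µM (interval -0.48 to 1.64, adjusted p = 0.441) at 48 h. At 24 h it was 0.63 ± 0.52 (interval -0.43 to 1.69, adjusted p = 0.481) and 0.30 ± 0.52 (interval -0.76 to 1.36, adjusted p = 0.771), and without vehicle replicate 1 it was 0.73 ± 0.56 and 0.40 ± 0.56 (adjusted p = 0.449 and 0.714). With the 4 vehicle arrays left out, the sign turned at 48 h, to -0.37 at 250 µM and -0.04 at 1000 µM (adjusted p = 0.846 and 0.991). Each interval spans more than the whole change seen for Cyp1a1 or Tiparp, so a change of their size in Ahr was not detectable at this precision. The second Ahr probe set lay under the limit on 2 to 4 of the 5 arrays in each group, and in a fit without the filter its changes against vehicle were -0.14 to 0.38, each with a standard error of 0.43.

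Arnt, the partner of AhR, had signals of 17.9 to 256. All wells but 1, at 250 µM and 48 h, lay under the limit of 234. It was not tested with the other genes, and no change in Arnt RNA was detectable at this signal.

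**Figure D3:**
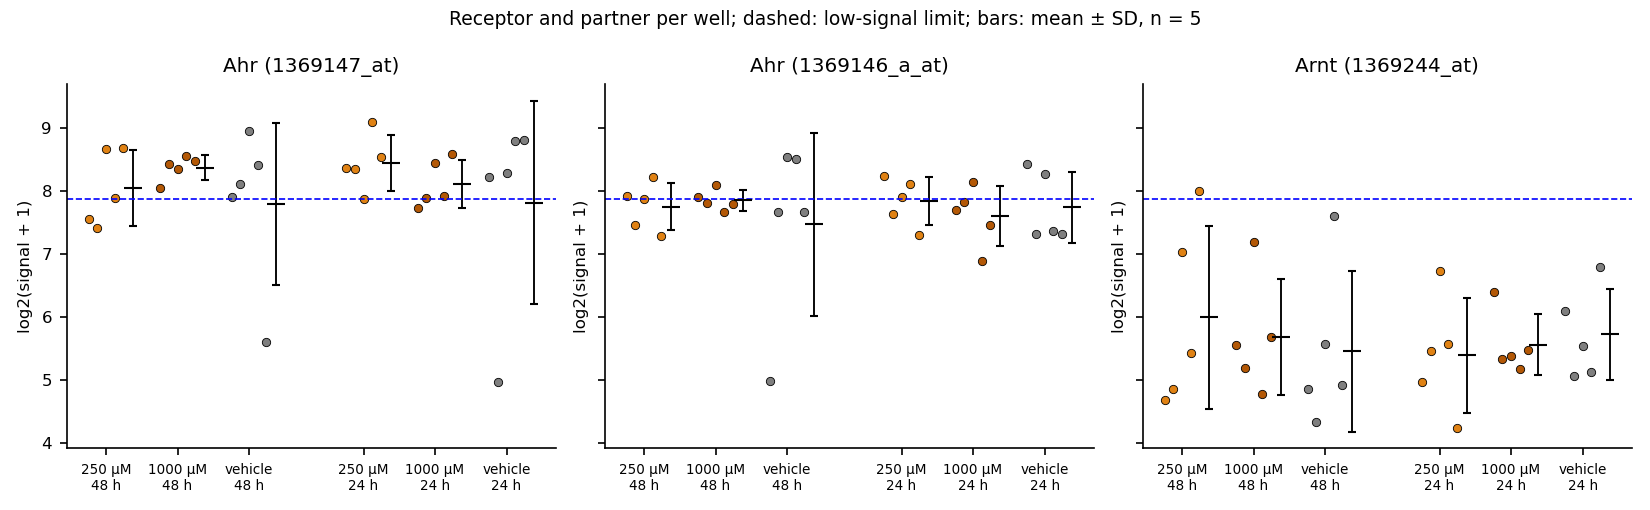
Log2 signal of the Ahr probe sets and of the Arnt probe set in each well, by group, with mean ± SD (n = 5) and the low-signal limit of 7.88 as a dashed line. Arnt lies under the line in all wells but 1, and single vehicle wells of Ahr fall to 4.97 and 4.99.

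The difference between doses was then tested directly. Cyp1a1 at 1000 µM differed from 250 µM by -0.01 at 48 h (interval -0.23 to 0.21) and by 0.00 at 24 h (interval -0.22 to 0.23). For Cyp1a2 the difference was 0.06 at 48 h (interval -0.10 to 0.22) and -0.01 at 24 h (interval -0.17 to 0.15). For Tiparp it was 0.10 at 48 h (interval -0.07 to 0.28) and 0.05 at 24 h (interval -0.12 to 0.23). No tested member was called between doses (limma, lowest unadjusted p = 0.235 for these 3 genes), and over all genes 0.0665% were called at 48 h and 0.0190% at 24 h. Differences within the intervals remain possible.

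Time in culture came with the largest change of any member in the comparisons made. Cyp1a2 fell between 24 and 48 h in every treatment, to 0.283-fold at 250 µM (log2 change -1.82 ± 0.08, adjusted p = 5.09e-18), 0.298-fold at 1000 µM (-1.75 ± 0.08, adjusted p = 1.36e-17) and 0.364-fold in vehicle (-1.46 ± 0.08, adjusted p = 1.62e-15). The 48 h wells lay below the 24 h wells in all 3 treatments, where 13.4%, 14.1% and 10.6% of all genes did not overlap in either direction. Of 10528 genes, only 8, 6 and 17 fell at least as far in the same 3 comparisons. In each treatment Cyp1a2 was the 1 of 4 tested members called with time, and lower, against 6.52% of all genes called lower at 250 µM, 8.11% at 1000 µM and 11.7% in vehicle. Cyp1a1, beside it, changed with time by 0.17 ± 0.11 at 250 µM, 0.15 ± 0.11 at 1000 µM and 0.03 ± 0.11 in vehicle (adjusted p = 0.37, 0.378 and 0.889). At both doses its 48 h wells lay above its 24 h wells without overlap. Without vehicle replicate 1 at 24 h, Cyp1a1 was called higher with time at 250 µM (0.17 ± 0.05, adjusted p = 0.0198) and 1000 µM (0.15 ± 0.05, adjusted p = 0.0299) and lower in vehicle (-0.17 ± 0.05, adjusted p = 0.0169). The brighter Tiparp probe set changed with time by -0.12 ± 0.09, -0.07 ± 0.09 and -0.10 ± 0.09 in the 3 treatments, and passed no test of time with all arrays. In vehicle the beta-actin ratio was 1.72 ± 0.494 at 48 h and 1.14 ± 0.084 at 24 h, and the GAPDH ratio was 0.219 ± 0.0545 and 0.147 ± 0.0216 (SD, n = 5 each, exact two-sided permutation p = 0.0397 and adjusted p = 0.0794 for both). With the 4 vehicle arrays left out, the Cyp1a2 change with time in vehicle was -1.40 ± 0.14 (adjusted p = 1.74e-07).

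Whether the effect of the compound differed between times was tested as the effect at 48 h minus that at 24 h. For Cyp1a2 the difference was -0.36 ± 0.11 at 250 µM (adjusted p = 0.0399), a larger fall at 48 h. That call was lost in 8 of 12 other settings and in 8 of 30 fits without 1 array, which left out replicate 2, 4 or 5 of 250 µM at 24 h, replicate 1, 3 or 5 of 250 µM at 48 h, or vehicle replicate 2 or 3 at 48 h (adjusted p = 0.0513 to 0.0725). At 1000 µM it was -0.29 ± 0.11 (adjusted p = 0.27). Over all genes 8.36% were called at 250 µM and 0.969% at 1000 µM in this test, and Cyp1a2 was the 1 of 4 members called. For Cyp1a1 it was 0.14 ± 0.15 at 250 µM and 0.12 ± 0.15 at 1000 µM (adjusted p = 0.627 and 0.814). This too turned on vehicle replicate 1 at 24 h. The adjusted p without that well are descriptive only, since it was singled out by its Cyp1a1 and Cyp1a2 signals. Without it the Cyp1a1 fall was smaller at 48 h than at 24 h, by 0.33 ± 0.07 at 250 µM (adjusted p = 0.0028, with 11.9% of all genes called) and 0.32 ± 0.07 at 1000 µM (adjusted p = 0.0144, with 1.93%), and the Cyp1a2 difference at 250 µM was -0.24 ± 0.07 (adjusted p = 0.0294). For Tiparp the difference was -0.02 ± 0.12 and 0.03 ± 0.12.

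The CYP1A genes were also set against each other within each array, as the log2 signal of Cyp1a1 minus that of Cyp1a2. The size of this difference mixes in how well each probe set binds, so only its change between groups is read. That reading assumes that both probe sets follow RNA in proportion at their signals, which was not tested. At 48 h it was 2.88 ± 0.06 at 250 µM, 2.81 ± 0.12 at 1000 µM and 2.51 ± 0.13 in vehicle (SD, n = 5 each). The 250 µM wells did not overlap the vehicle wells (difference 0.38, exact two-sided permutation p = 0.00794, the smallest that 5 against 5 allows, adjusted p = 0.0139 over 7 tests). The 1000 µM wells did overlap them (difference 0.30, exact p = 0.0159, adjusted p = 0.0223). At 24 h it was 0.90 ± 0.07 at 250 µM, 0.91 ± 0.08 at 1000 µM and 1.02 ± 0.16 in vehicle (SD, n = 5 each, exact p = 0.183 and 0.222). Without vehicle replicate 1 at 24 h the vehicle mean was 1.10 ± 0.05 (SD, n = 4), and the treated wells lay below it without overlap (differences -0.20 and -0.18, exact p = 0.00794 and adjusted p = 0.00926 for each). Relative to Cyp1a2, Cyp1a1 stood higher on average with the compound at 48 h, while at 24 h treated and vehicle wells overlapped with all arrays. The well left out was singled out by its own Cyp1a1 and Cyp1a2 signals, and its difference of 0.741 was the lowest of its group. The exact p without that well are therefore descriptive only. The difference itself was chosen after the data were seen, so the exact p with all arrays are descriptive as well.

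**Figure D4:**
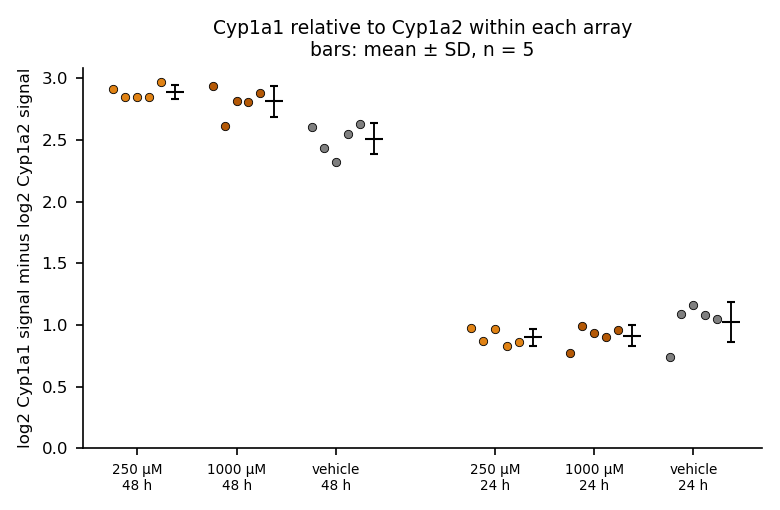
Log2 signal of Cyp1a1 minus log2 signal of Cyp1a2 within each array, by group, with points for wells and bars for mean ± SD (n = 5). The 48 h groups average 2.51 to 2.88 and the 24 h groups 0.90 to 1.02.

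The order of the groups differed by gene. For Cyp1a1 it ran, from high to low, through vehicle at 48 h, vehicle at 24 h, 250 µM at 48 h, 1000 µM at 48 h, 1000 µM at 24 h and 250 µM at 24 h, and of neighbours in that order only the 1000 µM groups at 48 and 24 h did not overlap. For Cyp1a2 the 3 groups at 24 h came first, and the steps that did not overlap were those between 1000 µM at 24 h and vehicle at 48 h, 1.16 on the log2 scale, and between vehicle at 48 h and 1000 µM at 48 h, 0.59. For the brighter Tiparp probe set all 4 treated groups stood above both vehicle groups, and all neighbours overlapped. For the second, vehicle at 24 h stood above both treated groups at 48 h. Over the 30 arrays, Cyp1a1 and Cyp1a2 correlated at r = 0.01, but their deviations from the group means correlated at r = 0.83. Tiparp's deviations correlated at r = 0.60 with those of Cyp1a1 and 0.73 with those of Cyp1a2. These correlations describe wells that share their array's scaling, and vehicle replicate 1 at 24 h was low for all 3 genes. The log2 SD of Cyp1a1 was 0.431 in vehicle at 24 h and 0.034 to 0.115 in the other groups. For Cyp1a2 it was 0.277 there and 0.048 to 0.102 in the other groups. The r of the deviations thus rest heavily on that well, and were not computed without it.

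The genes whose log2 signals followed each member most closely over the 30 arrays were found by Pearson's r across all tested genes, with the samples' groups and array scaling shared by every pair. Cyp1a1 was followed by Ugp2, which makes UDP-glucose (r = 0.930), and Slc37a4, the glucose-6-phosphate transporter (r = 0.901). Next came Idh2 (0.860), Ctnnb1, which encodes beta-catenin (0.857), and F9, coagulation factor IX (0.847). Without vehicle replicate 1 at 24 h these r were 0.812 to 0.948. Cyp1a2 was followed by Spp2 (0.971), Fgl1 (0.969), Ces1c (0.968), Apoa2 (0.965) and Cyp2c23 (0.965). For Cyp1a2 these r were 0.965 to 0.971 without that well. Tiparp had no equally close companion. Its highest r were 0.763 with Zfp386, 0.759 with Nucb2, 0.755 with Cdk2, 0.753 with Mettl7b and 0.751 with Cib2, and without that well Cdk2 was highest of the 5 (0.804) and Zfp386 lowest (0.671).

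Other genes of the pathway were taken from lists chosen with earlier results known. Beside the counts of each list stand the shares of all genes called in either direction, 41.2% at 250 µM and 29.7% at 1000 µM at 48 h, and 19.3% and 19.5% at 24 h. They were 13.1% and 11.2% at 48 h in the fit that left out the 4 vehicle arrays. Of 12 genes for the receptor, its chaperones, partners and coactivators, 7 were tested. At 48 h, 1 was called higher and 1 lower at each dose. The coactivator gene Ncoa1 was higher, by 0.27 ± 0.10 at 250 µM (adjusted p = 0.0219) and 0.36 ± 0.10 at 1000 µM (adjusted p = 0.00405). The chaperone gene Hsp90ab1 was lower, by 0.24 ± 0.09 (adjusted p = 0.0269) and 0.35 ± 0.09 (adjusted p = 0.00211). When the 4 vehicle arrays were left out, 0 of the 7 were called at 250 µM (Ncoa1 at 0.43 ± 0.17, adjusted p = 0.0957) and 1 at 1000 µM (Ncoa1 at 0.52 ± 0.17, adjusted p = 0.0419), and Hsp90ab1 changed by -0.04 ± 0.14 and -0.15 ± 0.14 (adjusted p = 0.908 and 0.604). At 24 h, 1 gene of this list was called at 250 µM, the retinoblastoma gene Rb1 (0.66 ± 0.22, adjusted p = 0.0321), and 0 at 1000 µM, where the lowest adjusted p was 0.092. The Rb1 call was lost without vehicle replicate 1 (0.58 ± 0.24, adjusted p = 0.0884), and Ncoa1 was then called at 250 µM (0.29 ± 0.10, adjusted p = 0.0498). The list's median change was 0.19 and -0.00 at 250 and 1000 µM at 48 h, beside -0.07 and -0.04 over all genes, and 0.17 and 0.14 at 24 h, beside -0.03 at both doses. Ahrr, the AhR repressor, lay under the limit.

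Of 16 genes listed as AhR targets, which include Cyp1a1, Cyp1a2 and Tiparp, 12 were tested. They did not move one way. At 48 h, 3 were higher and 4 lower at 250 µM, against 41.2% of all genes called, and 4 higher and 4 lower at 1000 µM, against 29.7%. In the fit that left out the 4 vehicle arrays, 2 were higher and 3 lower at 250 µM and 1 higher and 3 lower at 1000 µM. At 24 h, 3 were higher and 5 lower at 250 µM, and 4 higher and 6 lower at 1000 µM, against 19.3% and 19.5%. The median change of the list was 0.01 and -0.09 at 48 h and -0.14 at both doses at 24 h. Without vehicle replicate 1 at 24 h the counts there were 3 higher and 5 lower at 250 µM and 3 higher and 6 lower at 1000 µM.

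The largest fall in that list was in Lpin1, a phosphatidate phosphatase and lipid coactivator, by 1.44 ± 0.10 at 250 µM and 1.10 ± 0.10 at 1000 µM at 48 h (adjusted p = 1.51e-13 and 1.22e-10). Nfe2l2, which encodes the oxidative stress regulator NRF2, changed by -0.41 ± 0.05 and -0.34 ± 0.05 at 48 h (adjusted p = 7.27e-08 and 3.06e-06). The largest rise was in Cd36, a fatty acid receptor, by 1.12 ± 0.15 and 1.10 ± 0.15 at 48 h (adjusted p = 1.49e-07 and 3.32e-07). Fgf21, a fasting hormone, rose by 0.56 ± 0.11 and 0.50 ± 0.11, and Por, the electron donor of P450 enzymes, by 0.33 ± 0.08 and 0.25 ± 0.08. Cd36 no longer passed at 48 h with the 4 vehicle arrays left out (0.57 ± 0.20 and 0.54 ± 0.20, adjusted p = 0.0528 and 0.0741), nor did Fgf21 at 1000 µM (0.54 ± 0.19, adjusted p = 0.058). Lpin1 passed there with smaller changes of -0.95 ± 0.14 and -0.62 ± 0.14, and Por with larger ones of 0.72 ± 0.09 and 0.65 ± 0.09. Lpin1, Cd36 and Fgf21 are also known targets of the fatty acid receptor PPARα. Of 7 tested genes of a separate PPARα target list, 6 were called higher at 250 µM and 7 at 1000 µM at 48 h. Lpin1 moved the other way. The part of PPARα in these changes was not tested.

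The other listed targets gave few calls. Cyp1b1, the other CYP1 gene of the list, changed by 0.04 ± 0.26 at 250 µM and -0.08 ± 0.26 at 1000 µM at 48 h (adjusted p = 0.924 and 0.859). Nqo1, a quinone reductase also driven by NRF2, was lower at 1000 µM and 24 h (-0.26 ± 0.06, adjusted p = 0.0023) and passed no other test against vehicle. Selenbp1 was lower at 24 h, by 0.29 ± 0.08 at 250 µM and 0.22 ± 0.08 at 1000 µM (adjusted p = 0.00659 and 0.0399). At 48 h it changed by 0.01 ± 0.08 and -0.02 ± 0.08 (adjusted p = 0.93 and 0.903), and the difference between times passed no test (adjusted p = 0.0861 and 0.485). Xdh passed no test. Aldh3a1 lay under the limit.

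**Figure D5:**
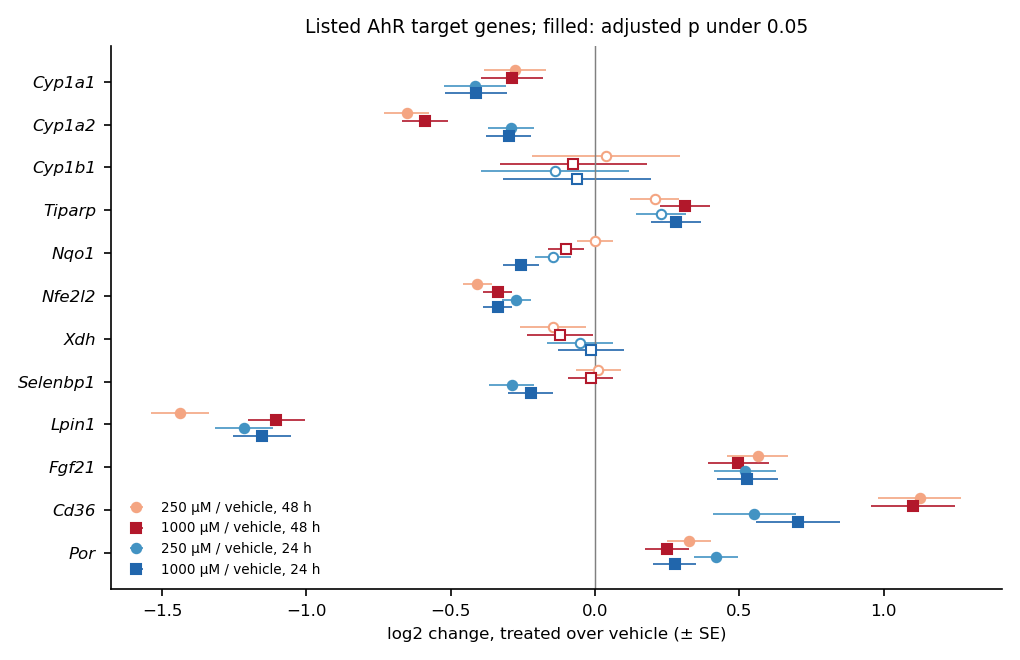
Log2 change against vehicle (± SE, limma) of the 12 tested genes of the AhR target list, in 4 comparisons, with filled points where the adjusted p is under 0.05. Lpin1, Cyp1a1, Cyp1a2 and Nfe2l2 lie below 0 and Cd36, Fgf21, Por and Tiparp above it in all 4 comparisons.

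ARNT also pairs with hypoxia-inducible factors, so their genes were read. Of 5 tested genes for other ARNT partners and related proteins, 0 were higher and 2 lower at 250 µM and 0 higher and 1 lower at 1000 µM at 48 h, with medians of -0.11 and -0.03. At 24 h, 0 were called at 250 µM (lowest adjusted p = 0.0881) and 1 at 1000 µM, the clock gene Npas2 (0.31 ± 0.11, adjusted p = 0.0404), a call lost without vehicle replicate 1. Hif1a, whose protein pairs with ARNT in low oxygen, was lower at 48 h by 0.38 ± 0.09 at 250 µM and 0.30 ± 0.09 at 1000 µM (adjusted p = 0.00104 and 0.0115). In the fit without the 4 vehicle arrays, its changes were -0.24 ± 0.16 and -0.16 ± 0.16 (adjusted p = 0.39 and 0.631), 0 of the 5 were called at 250 µM, and at 1000 µM 1 was, Epas1, higher (0.40 ± 0.11, adjusted p = 0.0157). Of 13 tested hypoxia targets, 4 were higher and 2 lower at each dose at 48 h, and 5 higher and 0 lower at each dose at 24 h. The counts at 48 h in that fit were 2 higher and 1 lower at 250 µM and 1 higher and 2 lower at 1000 µM. Ankrd37 rose by 1.07 ± 0.12 and 0.96 ± 0.12 at 48 h, and by 0.89 ± 0.12 and 0.83 ± 0.12 at 24 h. Ankrd37 in that fit changed at 48 h by 0.59 ± 0.17 at 250 µM (adjusted p = 0.0186) and by 0.48 ± 0.17 at 1000 µM (adjusted p = 0.0688). Vegfa, the vascular growth factor gene, rose by 0.37 ± 0.09 and 0.41 ± 0.09 at 48 h, and by 0.60 ± 0.09 and 0.55 ± 0.09 at 24 h. Slc2a1, a glucose transporter, was lower at 48 h by 0.37 ± 0.07 and 0.44 ± 0.07. The list's median was 0.13 and 0.05 at 48 h and 0.07 and 0.14 at 24 h.

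The relatives of Tiparp were lower where they were called against vehicle. With time, 5 of 8 were called higher in vehicle (median 0.275), 2 lower at 250 µM and 1 higher at 1000 µM. Over all 10528 genes, 2963, 1408 and 1897 were called in either direction in these comparisons. Of 8 tested genes of the PARP family, 0 were higher and 6 lower at 250 µM and 0 higher and 3 lower at 1000 µM at 48 h, with medians of -0.29 and -0.21. Parp14 changed by -0.63 ± 0.10 and -0.31 ± 0.10 and Parp12 by -0.60 ± 0.09 and -0.42 ± 0.09 at 48 h. At 24 h, 0 were called at 250 µM (the lowest adjusted p was 0.209, for Parp4) and 1 at 1000 µM, Parp12 (-0.26 ± 0.09, adjusted p = 0.0369), a call lost without vehicle replicate 1 (-0.23 ± 0.09, adjusted p = 0.0901). With the 4 vehicle arrays left out, 0 of the 8 were called at 48 h at either dose, and with the ratio in the model 3 and 1 were lower.

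Other liver P450 genes were read beside the CYP1A genes. Cyp2e1, an ethanol-oxidising P450, followed the same directions as Cyp1a2: it changed by -0.71 ± 0.10 at 250 µM and -0.70 ± 0.10 at 1000 µM at 48 h, by -0.40 ± 0.10 at both doses at 24 h, and by -0.79 ± 0.10 with time in vehicle. Its changes at 48 h without the 4 vehicle arrays were -0.46 ± 0.17 at both doses (adjusted p = 0.0835 and 0.097). Cyp3a2 had a larger fall with time in vehicle than Cyp1a2, -2.11 ± 0.09, but rose against vehicle at 48 h by 1.82 ± 0.09 and 1.73 ± 0.09. Cyp4a1, a fatty acid hydroxylase and PPARα target, rose by 2.24 ± 0.08 and 2.13 ± 0.08 at 48 h. Of the 7 tested P450 genes, 4 were higher and 3 lower at 250 µM and 3 higher and 3 lower at 1000 µM at 48 h, with medians of 0.26 and 0.14. With those arrays left out, 3 were higher and 2 lower at each dose.

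Cyp1a2 and Cyp1a1 lie next to each other on chromosome 8 in the gene order of GRCr8, between Csk and Edc3. Csk, a kinase gene, was higher at 24 h, by 0.40 ± 0.11 at 250 µM and 0.38 ± 0.11 at 1000 µM (adjusted p = 0.00886 and 0.012). Edc3, an mRNA decapping gene, was lower at 48 h by 0.69 ± 0.11 and 0.76 ± 0.11 and at 24 h by 0.54 ± 0.11 and 0.45 ± 0.11, all past the test. Edc3 changed at 48 h without the 4 vehicle arrays by -0.44 ± 0.18 and -0.51 ± 0.18 (adjusted p = 0.13 and 0.0741). The CYP1A genes thus lay between a neighbour that changed in the opposite direction at 24 h and a neighbour that changed in the same direction. These neighbours were chosen after the values of Cyp1a1 and Cyp1a2 were seen.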

How the data were processed

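RNA of 30 wells was measured on 30 Affymetrix rat arrays, 5 in each of 6 groups. The deposited file gives 1 linear intensity per probe set and array, which the authors made with MAS5 per the submitters' processing notes. Not given in the sources used here are its version and settings. Their trimmed mean (2% at each end) was 1500.6 to 1500.7 on every array.

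Signals were converted to log2 after adding 1, with no further scaling (array medians 8.45 to 8.79). Correlation within groups was 0.968 to 0.986. Of 31099 probe sets, 57 controls and the 40% of lowest mean were left out (limit 7.88, signal 234), 18625 remained, 14112 with 1 gene symbol in the platform table, 340 with several and 4173 with none. The brightest probe set per gene gave 10528 genes. limma 3.58.1 in R 4.3.3 fitted 1 mean per group over 30 arrays, with a mean-variance trend, and 11 contrasts were adjusted by Benjamini-Hochberg over 10528 genes. The fit was tested on simulated data. Single values used exact two-sided permutation tests. The members and lists were chosen with earlier results of these data known. The rule for named genes took all members, genes called in a dose comparison from 7 fixed lists, and the 5 genes most correlated with each tested member. Uncalled list genes named (Cyp1b1, Xdh, Ahrr, Aldh3a1), Epas1, Vim and Col1a1, the Cyp1a1 and Cyp1a2 difference, the neighbouring genes, and the counts without doubted arrays were chosen after seeing the data. Promoters are RefSeq's (GRCr8), found for 4 of 5 members. Alternatives were 12 settings and 30 fits that left out 1 array each.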

Additional observations from a re-analysis of the deposited data

Results flagged for a closer look

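In groups of 5 wells, a well far from its group by Dixon's test was found in 6 of the 42 groups of member values, where chance gives about 1 in 20. Vehicle replicate 1 at 24 h was low for Cyp1a1, at a log2 signal of 14.08 with the others at 14.98 to 15.09. The same well was low for Cyp1a2, at 13.33 with the others at 13.89 to 14.04. Tiparp was high in replicate 5 of 250 µM at 24 h, at 12.58 with the others at 12.08 to 12.18. The second Ahr probe set was low in vehicle replicate 1 at 48 h, at 4.99 with the others at 7.66 to 8.54. The tested Ahr probe set was low in vehicle replicate 2 at 24 h, at 4.97 with the others at 8.22 to 8.81. Arnt, under the low-signal limit, was high in replicate 1 of 1000 µM at 24 h, at 6.40 with the others at 5.18 to 5.48.

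With all arrays, the effect of 250 µM on Cyp1a2 was called different between the times, by -0.36 (48 h minus 24 h, SE 0.11, limma adjusted p = 0.0399). The call was kept in 4 of 12 other settings and in 22 of 30 fits that left out 1 array. Without vehicle replicate 1 at 24 h the difference was -0.24 (limma adjusted p = 0.0294, descriptive only).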

How the results depend on the processing

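Cyp1a1, Cyp1a2 and Tiparp were tested in 12 other settings and Ahr in 11 of them. Over the 11 comparisons their changes stayed on the same side of the threshold in 484 cases, passed it newly in 6 and lost it in 27. Among the 484, 15 values that were not called changed sign, 8 of them of Ahr. No called value reversed. Cyp1a2 at 48 h passed in every setting. With the compared groups alone in the fit, the 24 h changes of Cyp1a1 (-0.42 at 250 µM, -0.41 at 1000 µM), Cyp1a2 (-0.29, -0.30) and Tiparp (0.28 at 1000 µM) no longer passed (adjusted p = 0.0588 to 0.0848), while Tiparp at 250 µM and 48 h (0.21, adjusted p = 0.0115) and Cyp1a1 with time at 250 µM (0.17, adjusted p = 0.0112) did. With array medians centred, Cyp1a1 at 48 h (-0.28 at 250 µM, -0.32 at 1000 µM) and Cyp1a2 at 24 h (-0.27, -0.27) no longer passed. Cyp1a1 at 48 h also missed it with the beta-actin ratio as a covariate (-0.25, -0.27), without the low-signal filter or the variance trend (-0.28, -0.29), at 1000 µM with every probe set (-0.29), and without the 4 vehicle arrays (-0.38, -0.39), where Tiparp at 1000 µM was 0.26. Tiparp at 250 µM passed with the title number in sixes as a term (0.23 at 24 h, 0.21 at 48 h) and, at 48 h, with the lowest 50% left out (0.21) or quantile normalization (0.27). The larger Cyp1a2 fall at 48 h at 250 µM (-0.36) missed the threshold with the covariate (-0.38), medians centred (-0.38), every probe set, no filter, no trend or the compared groups alone (-0.36 each), quantile normalization (-0.28) and without the 4 vehicle arrays (-0.42). The cause of these shifts was not tested. With 1 array left out, calls changed in 37 of 1320 values. Cyp1a1 ranged over -0.31 to -0.25 (250 µM, 48 h), -0.32 to -0.26 (1000 µM, 48 h), 0.15 to 0.18, 0.10 to 0.18 and -0.17 to 0.087 with time at 250 µM, 1000 µM and in vehicle, and 0.079 to 0.33 and 0.063 to 0.32 for the effect at 48 h minus that at 24 h at 250 and 1000 µM. Cyp1a2 ranged over -0.42 to -0.24 for that difference at 250 µM, and Tiparp over 0.13 to 0.29 (250 µM, 24 h), 0.18 to 0.34 (1000 µM, 24 h) and 0.19 to 0.22 (250 µM, 48 h).

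Counts of called genes moved more than 1.5 times. With medians centred they were 1332 and 1291 (250 and 1000 µM, 24 h), with 2030 and 2051 as reported, and 773 and 876 with time at 250 and 1000 µM, with 1408 and 1897 as reported. At 48 h and 250 µM they were 2782 (covariate), 6556 (every probe set) and 1380 (without 4 vehicle arrays), with 4342 as reported, and 1177 at 1000 µM without those arrays, with 3132 as reported. With time in vehicle they were 749 (covariate), 4638 (every probe set), 1902 (compared groups alone) and 146 (without 4 vehicle arrays), with 2963 as reported. Effect differences between times gave 58 to 1789 genes (880 reported) at 250 µM and 16 to 322 (102 reported) at 1000 µM, the highest without vehicle replicate 4 at 48 h. At 1000 µM they numbered 203 without vehicle replicate 1 at 24 h, and 63 to 65 without replicate 3 at 24 h, replicate 3 or 5 at 48 h, vehicle replicate 4 at 24 h or vehicle replicate 3 at 48 h. Between doses they were 0 to 4 (2 reported) at 24 h and 1 to 20 (7 reported) at 48 h, the highest without replicate 3 of 1000 µM. With medians centred the share of calls that were higher was 52.8% (42.5% reported) at 1000 µM and 24 h, 69.0% (51.3%) with time at 250 µM, 78.3% (58.4%) with time in vehicle and 37.5% (53.9%) for the effect difference at 1000 µM, and with quantile normalization 33.3% (0%) at 24 h and 70.0% (57.1%) at 48 h between doses. Without the 4 vehicle arrays it was 49.9% (36.9%) and 52.4% (38.5%) at 250 and 1000 µM at 48 h. Ahr and Arnt are limited by signals near background.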
